A study of Mus musculus with 21 samples.

Results

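Lipogenesis and desaturase genes make fatty acids from sugar-derived carbon in the hepatocyte and place double bonds in them. The group described here has 10 members, chosen by name (Acly, Me1, Acaca, Acacb, Fasn, Elovl6, Scd1, Fads1, Fads2 and Srebf1), and all 10 were found by gene symbol among 54532 genes in the CCl4 liver table and in the cultured hepatocyte table, and among 34280 genes in the thioacetamide liver table. RNA-seq of mouse liver and of primary mouse hepatocytes gave 21 libraries in 7 groups of 3. Livers labelled with a hepatocyte-specific Nlrp3 deletion ("deletion-labelled livers" below) were set against wild-type livers, both after 8 weeks of intraperitoneal thioacetamide (TAA), a hepatotoxin that produces liver fibrosis. Livers labelled Sting knockout and wild-type livers, both given intraperitoneal CCl4, a second fibrosis-inducing hepatotoxin, were set against each other and against wild-type livers given oil. The sample labels give 6 weeks for CCl4 and oil, whereas the design text of the series gives 8 weeks for CCl4. Wild-type hepatocytes exposed to LPS at 1 µg/mL for 6 h and nigericin at 10 µM for 30 min had received MCC950, an NLRP3 inhibitor, at 10 µM 2 h earlier in one group and no inhibitor in the other. LPS and nigericin prime and trigger the NLRP3 inflammasome, so every culture was stimulated. Sex, age, strain and the Cre driver of the deletion are not given in the sources used here, and saline-treated livers and unstimulated cells were not analysed here. Nothing in the labels says that the 3 libraries of a group came from separate animals or cultures, so the p-values measure the spread between libraries.

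In the liver, citrate exported from mitochondria is cleaved to acetyl-CoA, carboxylated to malonyl-CoA and condensed to palmitate, which is then elongated and desaturated before it enters triglycerides and membranes. The whole pathway is under the control of SREBP transcription factors, which are released from the endoplasmic reticulum by SCAP and held there by INSIG proteins, and of the sugar-responsive factor ChREBP. Fatty liver, insulin and refeeding are the settings for which the hepatic pathway is best known.

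The targeted genes did not separate the genotypes, and the titles of the libraries labelled Sting knockout also carry codes beginning with SWT, whose meaning the labels do not give. Sting1, the gene targeted in the knockout, had 3.42, 1.98 and 5.28 FPKM in livers labelled Sting knockout, against 6.10, 5.15 and 4.74 FPKM in wild-type CCl4 livers, and 0.885, 1.23 and 1.46 FPKM in oil livers. Nlrp3 had 23, 105 and 83 counts in deletion-labelled livers and 36, 24 and 28 counts in wild-type TAA livers. Scaled for depth, these were 0.405, 1.54 and 1.07 TMM-scaled CPM in deletion-labelled livers and 0.794, 0.765 and 0.921 in wild-type TAA livers, so 1 deletion-labelled library lay below the wild-type range and 2 above it. Whole liver also contains non-hepatocytes, and reads outside the deleted part of either gene do not test a deletion. Depth was 14353483 to 16684832 reads per library in the CCl4 table, 14883710 to 17157586 in the hepatocyte table and 32096879 to 68913793 in the TAA table. Each tissue was checked against 9 hepatocyte markers, which were detected in every library. Of 7 adipocyte markers, the defining genes Adipoq and Lep were at 0 FPKM in all CCl4-table and hepatocyte-table libraries and at no more than 0.49 FPKM in any TAA-table library. The 7 together summed to 59.5 to 67.8 FPKM in hepatocyte cultures, nearly all of it Cidec and Fabp4, to 8.71 to 23.8 FPKM in TAA-table livers and to 3.98 to 8.8 FPKM in CCl4-table livers.

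The proximal promoters of 3 members are shown as examples. In the TAA comparison Fasn, the synthase, did not pass the test, whereas Fads2 and Elovl6 did. A link between the promoter letters and these results was not tested. The letters are RefSeq's, on GRCm38.p6, and cover the 250 bases before the start in RefSeq's promoter entry, 5′ to 3′ on the gene's strand. Capitals mark a CCAAT box (CCAAT) or a GC box (GGGCGG) on either strand.
Fasn, chr11:120824548-120824797, minus strand: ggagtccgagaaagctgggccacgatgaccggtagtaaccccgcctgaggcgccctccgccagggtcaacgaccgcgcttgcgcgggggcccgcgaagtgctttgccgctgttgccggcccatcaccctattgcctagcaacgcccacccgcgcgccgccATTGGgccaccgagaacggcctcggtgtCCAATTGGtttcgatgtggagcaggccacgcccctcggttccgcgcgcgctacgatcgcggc
Fads2, chr19:10101504-10101753, minus strand: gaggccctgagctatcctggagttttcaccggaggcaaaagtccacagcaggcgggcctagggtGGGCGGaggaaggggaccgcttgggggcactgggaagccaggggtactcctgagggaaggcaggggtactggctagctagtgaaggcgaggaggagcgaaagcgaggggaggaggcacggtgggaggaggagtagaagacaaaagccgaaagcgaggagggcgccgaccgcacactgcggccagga
Elovl6, chr3:129532136-129532385, plus strand: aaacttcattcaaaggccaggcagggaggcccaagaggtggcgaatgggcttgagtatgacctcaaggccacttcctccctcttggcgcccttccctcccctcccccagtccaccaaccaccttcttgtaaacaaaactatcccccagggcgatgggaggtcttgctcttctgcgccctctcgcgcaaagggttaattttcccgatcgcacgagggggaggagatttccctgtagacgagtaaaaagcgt

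Of the 11 annotated promoters of 8 members, 5 held a CCAAT box and 5 held a GC box in this window, motifs found in 33.8% and 32.7% of 32851 mouse promoters of the same length. The Fasn window held 3 CCAAT matches, 1 of them overlapping another on the opposite strand, the Fads2 window held 1 GC box and the Elovl6 window neither. A sterol regulatory element (TCACNCCAC) was found in none of the members' windows and in 1.05% of all, an E-box (CACGTG) in none and in 6.02%, and the DR4 element of the liver X receptor in none and in 0.0152%. These matches describe exact letters in the window only. The windows of Acaca, Acacb, Me1 promoter 2 and Srebf1 promoters 2 and 3 lie inside the annotated genes, and some CCAAT and GC box matches are in them. The windows of Elovl6 and Me1 promoter 1 run partly into the genes as located here. A missing match does not show that a gene lacks the element. The 4 members called higher under TAA in deletion-labelled livers were Scd1, Fads1, Fads2 and Elovl6.

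Per transcript length, Scd1 was the most abundant member in each of the 7 groups. Its mean FPKM (fragments scaled for transcript length and depth) was 497 ± 50.3 in deletion-labelled TAA livers and 102 ± 21.4 in wild-type TAA livers. In the CCl4 table it was 2359 ± 1442 in livers labelled Sting knockout, 1607 ± 546 in wild-type CCl4 livers and 3514 ± 815 in oil livers (SD, n = 3 for each group), and in hepatocytes it was 1026 ± 0.785 with MCC950 and 1001 ± 33.0 without. Scd1 accounted for 66.2% to 68.7% of the summed FPKM of the 10 genes in deletion-labelled livers, 53.8% to 57.1% in wild-type TAA livers and 65.1% to 85.0% across the CCl4 table. Fads2 and then Fads1 followed in mean level in each of the 5 liver groups. The carboxylases Acaca and Acacb were the 2 lowest in every liver group except wild-type TAA livers, where Elovl6 at 1.88 FPKM was below Acaca at 2.01 FPKM, a pair closer than the SD of either. In hepatocyte cultures Acly, Fads2 and Fasn followed Scd1, in that order.

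Under TAA, the desaturases and the elongase were higher in deletion-labelled livers than in wild-type livers, whereas the carboxylases and the synthase were not. Scd1, Fads2, Fads1 and Elovl6 rose by 2.48- to 3.76-fold. Me1, Acly and Srebf1 had values above the wild-type range without passing the threshold, and Fasn, Acaca and Acacb overlapped. The test was edgeR's quasi-likelihood test on the deposited counts with Benjamini-Hochberg adjustment over 18619 genes, and levels are depth-scaled counts (CPM) corrected by TMM factors (TMM-scaled CPM). At an adjusted p under 0.05, 4 of 10 members were called higher and 0 lower, where 1.73% of all genes tested were called, 1.37% higher and 0.36% lower. Before adjustment, 28.9% of all genes tested had a p under 0.05. The members' median log2 fold change was 1.23, beside -0.04 for all genes tested. Fewer cells of a type and less RNA per cell cannot be told apart in these bulk libraries.

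Scd1, chr19:44394451-44407709 on the minus strand of mm10, encodes the desaturase that makes oleate and palmitoleate from saturated acyl-CoA. It had 2463, 2657 and 2684 TMM-scaled CPM in deletion-labelled livers, against 764, 760 and 550 in wild-type livers. All 3 deletion-labelled libraries lay far above the highest wild-type library. The log2 fold change was 1.91 with a standard error of 0.23 (edgeR adjusted p = 0.0487), a 3.76-fold difference. Fads2, chr19:10064164-10101503 on the minus strand, encodes the first desaturase of polyunsaturated fatty acid synthesis. Its level was 389, 436 and 403 TMM-scaled CPM in deletion-labelled livers and 160, 163 and 118 in wild-type livers. The groups stood apart, with a log2 fold change of 1.48 ± 0.21 (SE; edgeR adjusted p = 0.0487). Fads1, chr19:10182888-10196870 on the plus strand, encodes the desaturase that completes arachidonate and eicosapentaenoate. It reached 197, 213 and 221 TMM-scaled CPM in deletion-labelled livers, against 87.8, 85.1 and 68.6 in wild-type livers. The groups were well separated, and the log2 fold change was 1.39 ± 0.19 (SE; edgeR adjusted p = 0.0487).

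Elovl6, chr3:129532355-129638495 on the plus strand, elongates palmitate to stearate and so supplies the substrate of Scd1. It had 43.7, 41.3 and 39.6 TMM-scaled CPM in deletion-labelled livers and 14.4, 16.5 and 19.4 in wild-type livers, with no overlap. The log2 fold change was 1.31 ± 0.19 (SE; edgeR adjusted p = 0.0487). The 4 adjusted p-values are equal because the adjustment ties neighbouring ranks.

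Me1, chr9:86581371-86695953 on the minus strand, is cytosolic malic enzyme, a source of NADPH. It had 91.0, 175 and 180 TMM-scaled CPM in deletion-labelled livers, against 59.3, 51.3 and 60.8 in wild-type livers. Deletion-labelled replicate 1 lay far below the other two but above every wild-type library, and the log2 fold change of 1.38 ± 0.29 (SE) had an edgeR adjusted p of 0.0501. Acly, chr11:100476353-100528000 on the minus strand, is ATP citrate lyase, which releases cytosolic acetyl-CoA. It had 54.4, 92.7 and 119 TMM-scaled CPM in deletion-labelled livers and 39.1, 53.7 and 27.3 in wild-type livers, so that the closest libraries almost touched (log2 fold change 1.15 ± 0.35 SE, edgeR adjusted p = 0.0855).

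Fasn, chr11:120805846-120824547 on the minus strand, is fatty acid synthase. It had 94.9, 137 and 76.4 TMM-scaled CPM in deletion-labelled livers, against 97.3, 101 and 69.5 in wild-type livers. The ranges overlapped (log2 fold change 0.20 ± 0.27 SE, edgeR adjusted p = 0.653). Acaca, chr11:84129672-84401651 on the plus strand, is the cytosolic acetyl-CoA carboxylase, and Acacb, chr5:114146535-114250761 on the plus strand, is the isoform at the mitochondrial surface whose product restrains fatty acid oxidation. Acaca had 51.9, 51.6 and 44.2 TMM-scaled CPM in deletion-labelled livers and 52.3, 34.0 and 52.2 in wild-type livers. Acacb had 53.7, 48.7 and 32.3 in deletion-labelled livers and 70.7, 50.3 and 50.8 in wild-type livers. Neither passed the test, with log2 fold changes of 0.09 ± 0.22 and -0.35 ± 0.25 (SE; edgeR adjusted p = 0.81 and 0.388).

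Srebf1, chr11:60199089-60222581 on the minus strand, encodes SREBP-1, the insulin-responsive activator of this pathway. Its level was 67.6, 62.1 and 49.7 TMM-scaled CPM in deletion-labelled livers, against 49.4, 40.6 and 45.2 in wild-type livers. The lowest deletion-labelled library exceeded the highest wild-type library by a small margin, and the log2 fold change was 0.41 ± 0.19 (SE; edgeR adjusted p = 0.206). Rai1 overlaps Srebf1 on the opposite strand and had a mean of 824 counts beside 2805 for Srebf1. No source used here gives the strand setting of the counting, so the share of either in the other cannot be told apart. In all, 7 of 10 members had TMM-scaled CPM without overlap, all higher in deletion-labelled livers, where 17.5% of all genes tested were higher and 18.7% lower in this way. Of the 9 hepatocyte markers, 6 were likewise higher without overlap and 0 lower, so this separation was not particular to the members.

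**Figure D1:**
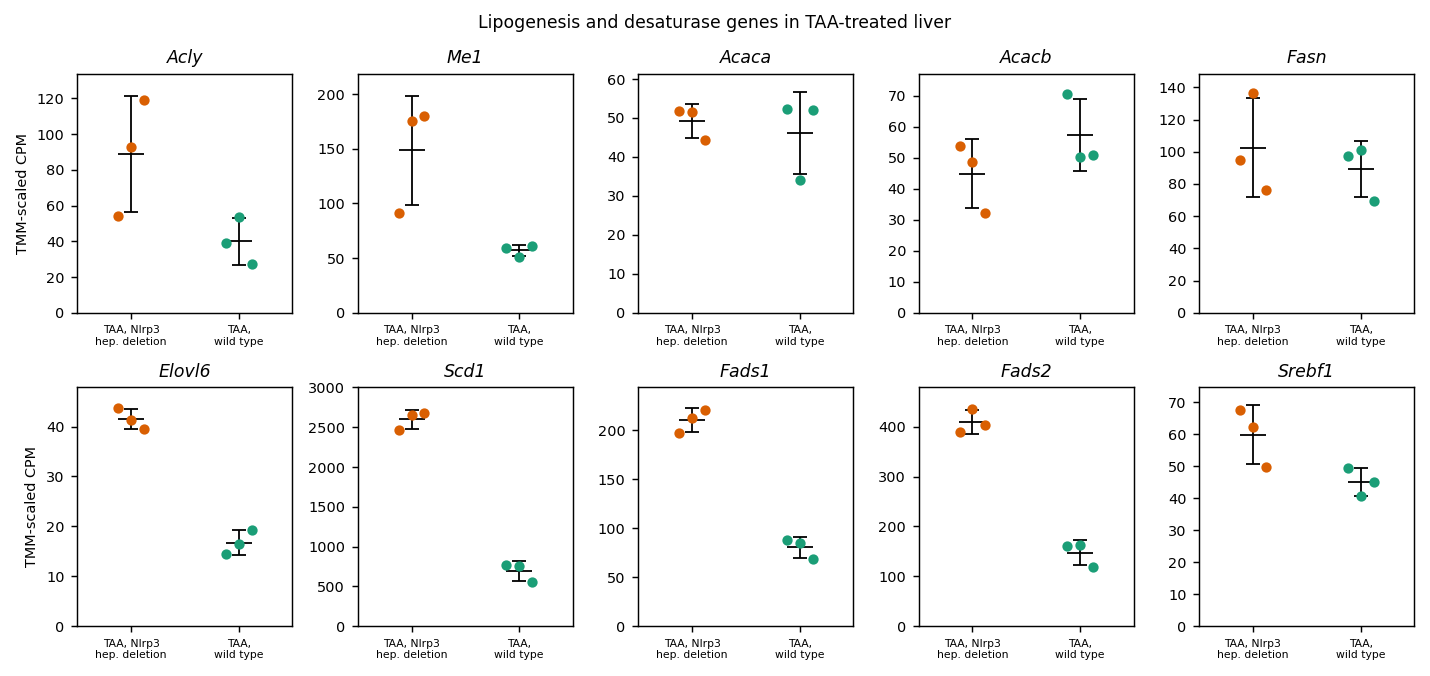
TMM-scaled CPM of the 10 genes in the 3 deletion-labelled TAA livers (orange, left) and the 3 wild-type TAA livers (green, right), with points for libraries and bars for mean ± SD; each panel has its own axis from 0. Scd1, Fads1, Fads2 and Elovl6 show separate groups, with Scd1 at 2463 to 2684 in deletion-labelled livers and 550 to 764 in wild-type livers, whereas Fasn, Acaca and Acacb overlap.

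The calls under TAA sit close to the threshold: with RLE factors, or without any 1 of deletion-labelled replicates 2 and 3 or wild-type replicates 1, 2 and 3, 0 members were called (without deletion-labelled replicate 1, 6), while the Scd1 log2 fold change ranged from 1.77 to 2.29 over all 12 alternatives. DESeq2 called 6 members. Other features of the libraries moved with the genotype label. Genes of the mitochondrial chromosome held 12.5%, 5.63% and 6.94% of counts in deletion-labelled livers, against 30.4%, 34.7% and 27.8% in wild-type livers. Together with rRNA genes and pseudogenes they held from 8.76% to 54.3% of the counts of a TAA library. The 9 hepatocyte markers summed to 25577, 32325 and 32363 FPKM in deletion-labelled livers and 10247, 10080 and 9420 FPKM in wild-type livers. All 9 hepatocyte markers had log2 fold changes above 0 in the count test, with a median of 0.87, and 1 of them, fibrinogen beta chain Fgb, passed it. Of 5 proliferation genes, 2 had log2 fold changes above 0, with a median of -0.06 and a highest of 0.22, and 1 was called. The called gene, Mki67, which marks cycling cells, fell, with 13.4, 8.76 and 9.2 TMM-scaled CPM in deletion-labelled livers. In wild-type livers Mki67 had 37.1, 32.4 and 37.1 (log2 fold change -1.76, edgeR adjusted p = 0.0487). The 7 macrophage markers had a median log2 fold change of 0.66, reaching 2.79 for Adgre1, and summed to 51.3 to 91.4 FPKM in deletion-labelled livers and 46.7 to 52.2 FPKM in wild-type livers. The 5 endothelial markers had a median of 0.89 and the 6 stellate cell markers of 0.44, and 0 genes of these 3 lists were called. The part of these differences in the members' values was not tested.

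Set against the summed hepatocyte markers of the same library, a ratio chosen after its values were seen, Scd1 was the 1 member still above the wild-type range. It had 16.0 to 17.2 FPKM per 1000 FPKM of markers in deletion-labelled livers, against 9.17 to 12.3 in wild-type livers, a ratio of means of 1.62. Of the 11165 genes averaging 1 FPKM or more, 0.511% were higher without overlap on this scale. Fads1, Fads2 and Elovl6 overlapped, with means of 1.36, 3.87 and 0.202 in deletion-labelled livers and 1.22, 3.23 and 0.191 in wild-type livers. Acaca, Acacb, Fasn and Srebf1 were below the wild-type range on this scale, as were 72% of all genes. Alb and Apoa1 made up 64.6% and 14% of the marker sum in the TAA table, so the ratio is mainly one to albumin. Within a library, the ratio of Scd1 to Fasn FPKM does not depend on any scaling: it was 58.1, 43.6 and 78.7 in deletion-labelled livers and 17.6, 16.8 and 17.7 in wild-type livers, with no overlap.

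**Figure D2:**
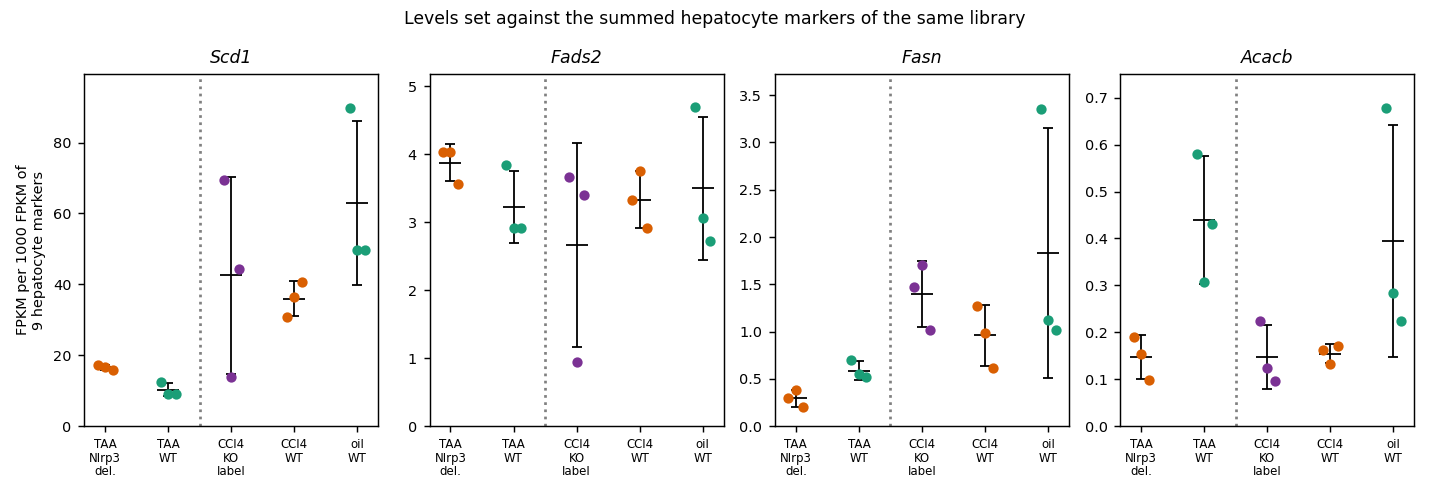
FPKM of Scd1, Fads2, Fasn and Acacb per 1000 FPKM of 9 summed hepatocyte markers, for the TAA table left of the dotted line and the CCl4 table right of it; points are libraries, bars mean ± SD, and values are comparable only on the same side of the line. Scd1 is the 1 panel with every deletion-labelled TAA library above every wild-type TAA library (ratio of means 1.62), and Scd1 and Acacb have every wild-type CCl4 library below every oil library.

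Among 44 other tested genes of fatty acid and glycerolipid synthesis, 4 were called higher and 1 lower in deletion-labelled livers. Thrsp, a lipogenic cofactor of hepatocytes, rose by 1.56 on the log2 scale, with 56.8, 62.5 and 44.4 TMM-scaled CPM in deletion-labelled livers and 19.6, 21.4 and 14.4 in wild-type livers. Elovl5, the elongase of polyunsaturated acids that acts between Fads2 and Fads1, rose by 1.46. Fads6, a desaturase-family gene, rose by 1.85, and Dgat2, which adds the last acyl chain of triglycerides, rose by 1.09 (edgeR adjusted p = 0.0487 for each of these). The groups did not overlap for any of these 4 genes.

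Other close kin did not pass. Scd2, the stearoyl-CoA desaturase most prominent outside the liver, had a log2 fold change of 0.63 and Insig1 of 0.95, while Nr1h3, the liver X receptor alpha, had -0.15 and Srebf2 0.33. Insig2 had 0.73, and Pnpla3, a lipid-droplet lipase gene with under 1 TMM-scaled CPM in every library, had 0.26. Mlxipl, the gene of ChREBP, had 283, 113 and 32.9 TMM-scaled CPM in deletion-labelled livers and 317, 299 and 267 in wild-type livers. Its log2 fold change was -1.04 with a standard error of 0.63 (edgeR adjusted p = 0.308), and the deletion-labelled libraries differed widely among themselves.

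In wild-type livers given CCl4, 1 of the 10 members passed the test against oil livers, and all 10 had log2 fold changes below 0. The gene was Acacb, which fell by 1.45 on the log2 scale, a 2.73-fold lower level. The test was limma with an intensity trend on log2(FPKM + 1), fitted on all 9 libraries of the table over the 11511 genes averaging 1 FPKM or more. Of all genes tested, 15.3% were called, 6.15% lower and 9.19% higher, and 28.4% had an unadjusted p under 0.05. The members' median was -0.91, beside -0.08 for all genes tested. Without overlap in FPKM, 7 members were lower in CCl4 livers, where 21.4% of all genes tested were lower and 16.6% higher in this way. The FPKM scale itself differed. FPKM times gene length in kilobases summed to 857315 to 916803 in these CCl4 livers and 1096240 to 1344058 in oil livers. As a share of the reads recovered from FPKM, Scd1, Srebf1, Fasn, Me1, Fads1 and Fads2 overlapped, and Acacb stayed apart only by a small margin. For Acacb, CCl4 replicate 3 had 1670 of 16012226 reads and oil replicate 3 had 1525 of 14353483. For Scd1, CCl4 replicate 3 had 200807 of 16012226 reads and oil replicate 2 had 179543 of 15772813.

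Acacb had 6.51, 4.88 and 9.32 FPKM in wild-type CCl4 livers, against 33.4, 16.1 and 14.8 FPKM in oil livers. Every CCl4 library lay under every oil library, and oil replicate 1 was the highest. The log2 fold change of -1.45 had a standard error of 0.44 (limma adjusted p = 0.0495). Leaving out any 1 of the 6 libraries, a pseudocount of 0.1, no filter, no intensity trend or quantile normalization each ended the call, with an adjusted p of up to 0.179. The ratio of Acacb to Acaca within a library was 0.852, 0.784 and 1.44 in CCl4 livers and 3.87, 2.24 and 2.23 in oil livers, with no overlap.

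Srebf1 had 71.7, 39.5 and 33.0 FPKM in wild-type CCl4 livers and 137, 93.9 and 89.4 FPKM in oil livers, which did not overlap. Its log2 fold change of -1.19 ± 0.38 (SE) had a limma adjusted p of 0.0603. Same-numbered libraries of these groups deviated together, though the labels state no pairing. With the replicate number as a block 2 members were called: Acacb (limma adjusted p = 0.0428) and Srebf1 (limma adjusted p = 0.0296). Scd1 had 1234, 1353 and 2233 FPKM in wild-type CCl4 livers, against 4418, 2838 and 3284 FPKM in oil livers. Again no library overlapped, and the log2 fold change was -1.15 ± 0.45 (SE; limma adjusted p = 0.117).

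Fasn had 51.1, 36.6 and 33.9 FPKM in wild-type CCl4 livers and 165, 63.7 and 67.4 FPKM in oil livers (log2 fold change -1.14 ± 0.51 SE, limma adjusted p = 0.171). Oil replicate 1 carried the highest Fasn value of the table. Me1 had 15.3, 53.3 and 43.6 FPKM in CCl4 livers, against 122, 62.9 and 82.4 FPKM in oil livers (log2 fold change -1.35 ± 0.55 SE, limma adjusted p = 0.133). Fads1 stood at 104, 105 and 102 FPKM in CCl4 livers, the tightest triplet of the liver groups, and at 171, 133 and 130 FPKM in oil livers. Fads2 had 134, 139 and 160 FPKM in CCl4 livers and 232, 174 and 181 FPKM in oil livers. These 2 genes had no overlap but small differences, with log2 fold changes of -0.46 and -0.43, and quantile normalization turned them to 0.09 and 0.14.

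Acly, Elovl6 and Acaca overlapped between the groups. Acly had 52.7, 58.0 and 87.0 FPKM in wild-type CCl4 livers, against 153, 76.3 and 76.3 FPKM in oil livers. Elovl6 had 10.6, 11.1 and 21.2 FPKM in CCl4 livers and 26.0, 15.4 and 27.4 FPKM in oil livers. Acaca was the least different member, at 7.65, 6.22 and 6.5 FPKM in CCl4 livers and 8.64, 7.19 and 6.65 FPKM in oil livers (log2 fold change -0.12, limma adjusted p = 0.799).

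**Figure D3:**
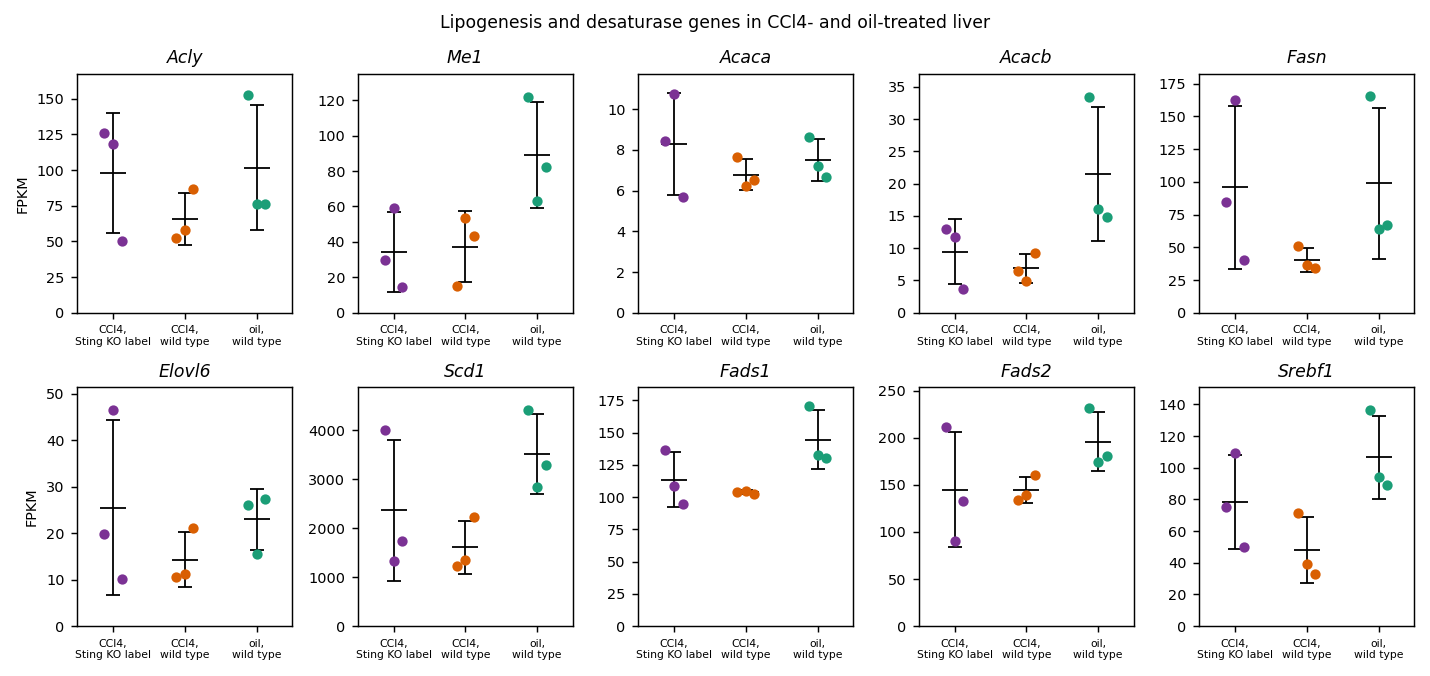
FPKM of the 10 genes in livers labelled Sting knockout given CCl4 (purple, left), wild-type livers given CCl4 (orange, middle) and wild-type livers given oil (green, right); points are libraries and bars are mean ± SD, with each panel on its own axis from 0. Wild-type CCl4 livers lie below oil livers without overlap in 7 panels, and Fasn and Elovl6 in livers labelled Sting knockout are spread by replicate 2, at 163 and 46.5 FPKM.

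Markers of other cells moved in the same comparison. The 6 stellate cell and myofibroblast markers summed to 110 to 317 FPKM in wild-type CCl4 livers and 13.8 to 15.4 FPKM in oil livers, with 5 of 6 called higher, and 5 of 5 proliferation genes and 5 of 6 tested macrophage markers were called higher. The 9 hepatocyte markers summed to 37024 to 54819 FPKM in CCl4 livers and 49281 to 66244 FPKM in oil livers, all 9 with log2 fold changes below 0, a median of -0.43 and 0 called. These sums carry the difference in FPKM scale given above, which was lower in every CCl4 library than in every oil library. Mitochondrial genes held 3.42% to 5.36% of reads in CCl4 livers and 5.4% to 9.16% in oil livers. The part of these differences in the members' values was not tested. Per 1000 FPKM of hepatocyte markers, Scd1 was 30.7 to 40.7 in CCl4 livers and 49.6 to 89.7 in oil livers, and Scd1 and Acacb were the 2 members lower without overlap, as were 6.29% of all genes, with 28.7% higher. Acaca had a ratio of means of 1.19 on this scale, Fads2 of 0.953 and Fads1 of 0.94.

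Of 41 other tested genes of fatty acid and glycerolipid synthesis, 8 were called lower and 1 higher in wild-type CCl4 livers. Elovl3, a very-long-chain elongase, had 4.38, 150.2 and 0.072 FPKM in CCl4 livers, against 481, 389 and 452 FPKM in oil livers, a log2 fold change of -5.52 (limma adjusted p = 0.0184). CCl4 replicate 2 stood far above the other two CCl4 libraries. Among regulators, Mlxipl fell by 1.29 on the log2 scale, Insig2 by 1.38 and Scap by 1.16 (limma adjusted p = 0.0237, 0.00965 and 0.0146). Among suppliers of carbon, Acss2, which makes acetyl-CoA from acetate, fell by 1.76 and Pklr, the liver pyruvate kinase, by 1.75 (limma adjusted p = 0.0184 and 0.0042). Dgat2 fell by 1.22 and Fads6 by 0.998 (limma adjusted p = 0.0424 and 0.0325). Scd2 moved the other way: it had 9.23, 7.68 and 12.9 FPKM in CCl4 livers and 2.74, 1.96 and 2.15 FPKM in oil livers, a log2 fold change of 1.71 (limma adjusted p = 0.00235). The groups stood well apart for Scd2, the paralog of Scd1 that oil livers expressed at a low level. Not called were Elovl5 (log2 fold change -1.09), Insig1 (-0.80), Nr1h3 (-0.28), Srebf2 (-0.16) and Pnpla3 (0.96).

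Within CCl4-treated livers, the groups overlapped for every member between the Sting knockout label and wild type. Fasn had the highest log2 fold change, 1.02 ± 0.51 (SE), at 84.6, 163 and 40.0 FPKM in livers labelled Sting knockout and 51.1, 36.6 and 33.9 FPKM in wild-type CCl4 livers (limma adjusted p = 0.761). Replicate 3 labelled Sting knockout lay inside the wild-type range and replicate 2 far above it. With the replicate number as a block, Fasn and Srebf1 both had a limma adjusted p of 0.52. By limma, 0 members and 0 of 11511 genes (0%) were called, and edgeR on recovered reads called 0; 366 genes, 3.18%, had an unadjusted p under 0.05. Of the 10 members, 8 had log2 fold changes above 0, with a median of 0.37 beside 0.02 for all genes tested, and 0 had groups without overlap, where 2.35% of all genes were higher and 2.78% lower in this way.

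Srebf1 had 75.5, 109 and 49.9 FPKM in livers labelled Sting knockout, against 71.7, 39.5 and 33.0 FPKM in wild-type CCl4 livers (log2 fold change 0.70). Elovl6 had 19.8, 46.5 and 10.2 FPKM in livers labelled Sting knockout and 10.6, 11.1 and 21.2 FPKM in wild-type CCl4 livers (0.61). Scd1 had 4008, 1336 and 1734 FPKM in livers labelled Sting knockout and 1234, 1353 and 2233 FPKM in wild-type CCl4 livers (0.44). Different libraries carried the high values: replicate 1 for Scd1, replicate 2 for Fasn, Srebf1 and Elovl6. In the library labelled Sting knockout replicate 2 the ratio of Scd1 to Fasn FPKM was 8.21, against 24.2 to 65.8 in the other 8 libraries of the table, and its Fads2, at 90.3 FPKM, was the lowest of the 9.

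That library also stood apart in other ways, with 95464 FPKM of summed hepatocyte markers against 37024 to 66244 FPKM in the others. Its FPKM times gene length in kilobases summed to 1215065, against 822718 to 962313 in the other CCl4 livers. The FPKM of that library, and fold changes that include it, carry this difference in scale. Thrsp had 48.8, 599 and 19.3 FPKM in livers labelled Sting knockout and 68.2, 82.1 and 40.4 FPKM in wild-type CCl4 livers. The Fads2 log2 fold change was -0.07 with replicate 2 and 0.22 without it. Acly had 126, 118 and 50.03 FPKM in livers labelled Sting knockout, against 52.7, 58.0 and 87.0 FPKM in wild-type CCl4 livers (log2 fold change 0.49), so that replicate 3 lay below the wild-type range and the other two above it. Acaca had 8.44, 10.7 and 5.70 FPKM in livers labelled Sting knockout (0.22), Acacb 12.9, 11.8 and 3.74 FPKM (0.30) and Me1 30.0, 59.1 and 14.6 FPKM (-0.15), each spanning the wild-type CCl4 mean. Fads1, at 137, 109 and 94.6 FPKM, had a log2 fold change of 0.11. Per 1000 FPKM of hepatocyte markers, all 10 members overlapped, where 0.269% of all genes were higher and 4.14% lower. Of the 41 other pathway genes tested, 0 were called.

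Set against the oil libraries, which also served the wild-type comparison, livers labelled Sting knockout had 0 members called, where 13.9% of all genes were called, 5.91% lower and 8% higher. Me1 and Acacb were lower without overlap, with log2 fold changes of -1.50 and -1.15 (limma adjusted p = 0.101 and 0.113), where 19.8% of all genes were lower and 17.8% higher in this way. Per 1000 FPKM of hepatocyte markers, Me1 and Srebf1 were lower without overlap, where 12.6% of all genes were lower and 13.3% higher. Without Sting knockout replicate 2, Me1 was called at -1.98 (limma adjusted p = 0.0404). Fasn and Elovl6 were close to 0, at -0.12 and -0.06, and Scd1 at -0.72. The ratio of Acacb to Acaca was 1.53, 1.10 and 0.655 in livers labelled Sting knockout, below the 2.23 to 3.87 of oil livers without overlap. The members' median was -0.42, beside -0.04 for all genes tested. Among the other pathway genes, Scd2 was called higher (1.80) and Elovl3 (-5.00), Fads6 (-1.18), Pklr (-1.09) and Scap (-0.93) were called lower.

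In stimulated hepatocytes, MCC950 changed no member past the threshold, and the libraries were much closer to each other than the liver libraries were. RNA of Nlrp3, whose protein MCC950 inhibits, was near 0, with 4, 1 and 3 recovered reads in MCC950-treated cells. Cells without inhibitor had 1, 0 and 4, and these libraries do not measure protein. Fasn had the largest fold change of the 10, with 102, 99.9 and 96.4 FPKM in MCC950-treated cells and 111, 114 and 114 FPKM in cells without inhibitor. The groups did not overlap, and the log2 fold change was -0.18 ± 0.05 (SE; limma unadjusted p = 0.00553, adjusted p = 0.39). Fads2 likewise had 203, 197 and 193 FPKM in MCC950-treated cells, against 213, 215 and 217 FPKM in cells without inhibitor (log2 fold change -0.12, limma adjusted p = 0.411). These were the 2 members without overlap, both lower, where 10.8% of all genes tested were lower and 8.88% higher in this way.

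By limma, 0 of 9835 genes (0%) were called, and edgeR on recovered reads called 0; 1168 genes, 11.9%, had an unadjusted p under 0.05. Scd1 had 1026, 1027 and 1027 FPKM in MCC950-treated cells and 990, 976 and 1039 FPKM in cells without inhibitor, which overlapped. Srebf1 had 16.2, 18.3 and 16.0 FPKM in MCC950-treated cells and 17.8, 18.8 and 19.6 FPKM in cells without inhibitor, with a log2 fold change of -0.15. Acly had 210, 224 and 216 FPKM in MCC950-treated cells, against 218, 244 and 245 FPKM in cells without inhibitor. The other 5 genes, Acaca, Acacb, Elovl6, Fads1 and Me1, had log2 fold changes from -0.12 to 0.08. The members' median was -0.08, beside -0.01 for all genes tested, and 0 of 41 other pathway genes were called. Per 1000 FPKM of hepatocyte markers, all 10 members overlapped, where 6.31% of all genes were higher and 5.38% lower. Within a library, Scd1 to Fasn was 10.1, 10.3 and 10.7 in MCC950-treated cells and 8.89, 8.58 and 9.14 in cells without inhibitor. Acacb to Acaca was 1.08 to 1.10 in MCC950-treated cells and 1.15 to 1.33 in cells without inhibitor, and neither ratio overlapped between the groups. Both ratios were chosen after the data were seen. Each had an exact permutation p of 0.1, the smallest that 3 against 3 libraries can give. The 6 stellate cell markers summed to no more than 0.0343 FPKM in any culture, the 7 macrophage markers to 26.9 to 35.1 FPKM, nearly all of it Cd68, and the 5 cholangiocyte markers to 52.7 to 66.9 FPKM, mostly Spp1.

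**Figure D4:**
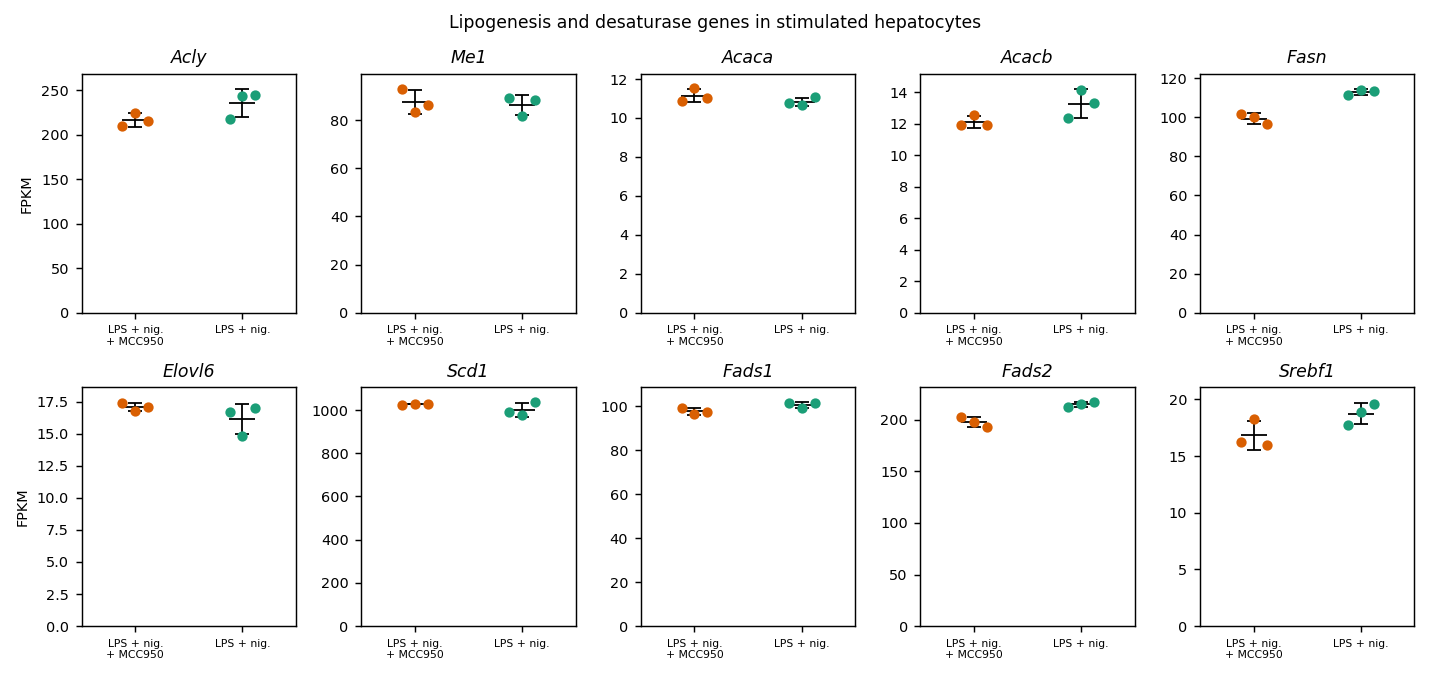
FPKM of the 10 genes in hepatocytes stimulated with LPS and nigericin, with MCC950 (orange, left) or without it (green, right); points are libraries, bars mean ± SD, and each axis starts at 0. Fasn (96.4 to 102 with MCC950, 111 to 114 without) and Fads2 are the panels without overlap.

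Members differed in their fold changes within and between the 5 comparisons. The groups share no library between the TAA table, the CCl4 table and the hepatocyte table, which were normalized separately, so the fold changes stand side by side only. Scd1 had log2 fold changes of 1.91 for the deletion label under TAA, -1.15 for CCl4 against oil, -0.72 for the Sting knockout label against oil, 0.44 for the Sting knockout label under CCl4 and 0.04 for MCC950. Acacb, by contrast, had -0.35, -1.45, -1.15, 0.30 and -0.12 in the same order. Acaca stayed between -0.12 and 0.22 in all 5.

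**Figure D5:**
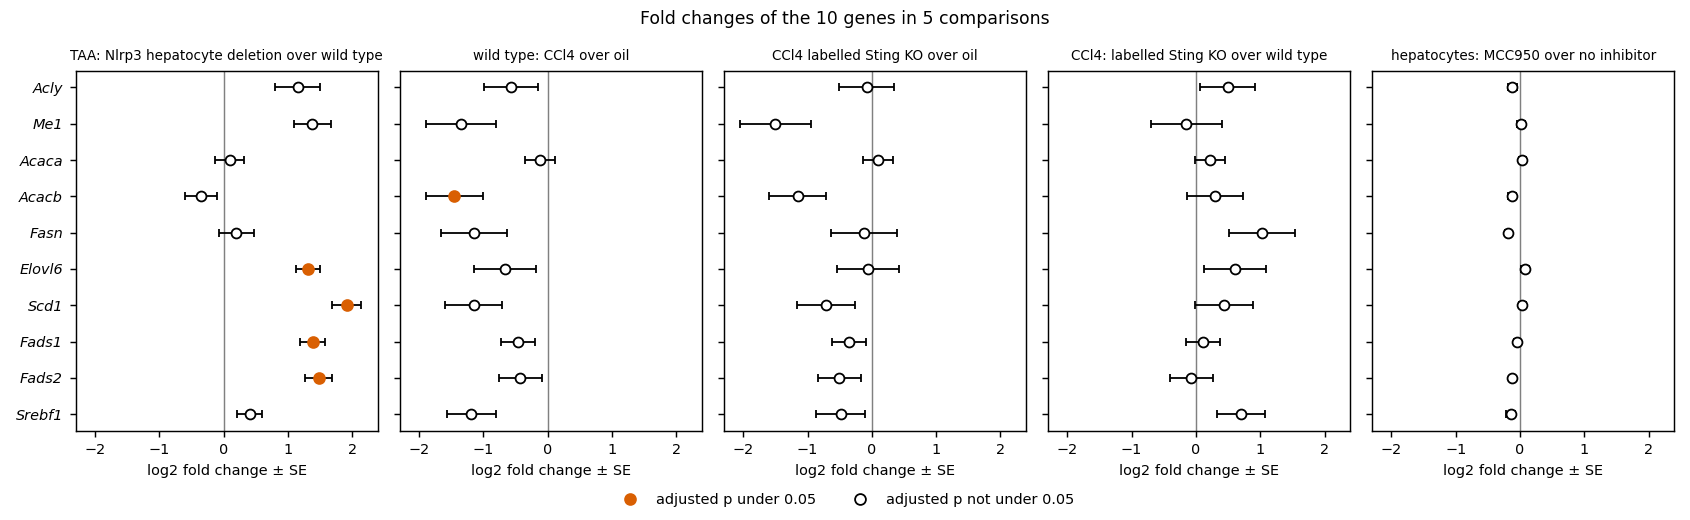
Log2 fold changes of the 10 genes with standard errors in the 5 comparisons, from edgeR on counts for TAA and from limma on log2(FPKM + 1) for the others; filled points passed an adjusted p of 0.05. The passing genes are Elovl6, Scd1, Fads1 and Fads2 under TAA and Acacb for CCl4 against oil.

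The genes outside these lists whose log2(FPKM + 1) ran most like the mean standardized value of the 10 members included, in the CCl4 table, Gm10762, Rwdd2b, Lpcat3 and Pgrmc2, with Pearson coefficients of 0.913 to 0.947 over 9 libraries and 10378 genes compared. In the TAA table they were Acot7, Sbds, Rbpms2, Acadvl and Oxa1l, with coefficients of 0.996 to 0.999 over 6 libraries and 9653 genes. These coefficients are descriptions over few libraries that share their groups, depth and, in the TAA table, the difference in mitochondrial counts.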

How the data were processed

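Liver RNA was profiled by RNA-seq in 15 libraries and hepatocyte RNA in 6. Per the submitters' processing notes, HISAT2 2.2.1, featureCounts 1.5.0-p3 and the mm10 build were used; strand and multi-mapping settings are not given in the sources used here. The authors deposited FPKM per gene for the CCl4 and hepatocyte tables with gene length, and, for the TAA table, read counts and FPKM, per the file headers. Deposited FPKM times gene length came out as whole multiples of 1 read for 100% of values within 0.05, and these recovered reads set the depths given; edgeR on them called 1969 genes higher and 821 lower for wild-type CCl4 against oil, 1702 and 734 for the Sting knockout label against oil, and 0 in the other comparisons; on that scale library sums ran from 822718 to 1344058, so the FPKM are not scaled to one fixed total of reads on genes.

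FPKM were tested as log2(FPKM + 1) with limma 3.58.1 (genes averaging 1 FPKM or more; fold changes of low genes are understated), and counts with edgeR 4.0.16 (TMM, filterByExpr), in R 4.3.3, with adjusted p under 0.05 as the call; DESeq2 1.42.0, other scalings, filters and pseudocounts, the replicate block and leaving out each library were alternatives. Each fit was tested on simulated data. Same-numbered libraries correlated at 0.225, 0.319 and 0.516 for wild-type CCl4 and oil livers. For the Sting knockout label and wild type under CCl4 these values were 0.189, 0.176 and 0.12. All were above 0.1, so the numbers may pair these libraries, but the main tests used no pairing. In the other comparisons not all same-numbered correlations were above 0.1. For the Sting knockout label and oil they were 0.0223, 0.179 and 0.0929, so a pairing across the 3 groups of that table is not settled. For MCC950 these correlations were 0.179, 0.218 and 0.085, so a pairing there is not excluded. The labels state no pairing in any comparison.

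The members and lists were chosen with earlier results of these data known. Named were all 10 members, called genes of 5 pathway lists of 46 genes (up to 4 a list), close kin (Scd2, Mlxipl, Nr1h3, Insig1, Insig2, Srebf2, Pnpla3, Elovl5) and the 5 genes most like the members in each liver table; 2 genes that this rule takes in are not reported here. Ratios within a library and levels per summed hepatocyte marker were added after seeing the data. For such a ratio, an exact two-sided permutation test of 3 against 3 libraries cannot go below p = 0.1. Tables were compared only within themselves. Promoters came from RefSeq (GRCm38.p6) for 8 members; Scd1 and Fads1 had no entry.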

Additional observations from a re-analysis of the deposited data

How the results depend on the processing

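Over 720 alternative values of the 50 gene-level fold changes, 638 kept direction and side of the threshold, 38 lost a call, 16 gained one and 28 changed sign, all 28 in genes that were not called. For CCl4 against oil in wild-type livers, 0 members were called with a pseudocount of 0.1, with no filter or with quantile normalization, 2 with the replicate block, and 0 to 1 on leaving out 1 library. Settings chosen after seeing the data gave 3 (only the 6 libraries compared) and 2 (without Sting knockout replicate 2). For the Sting knockout label against oil the count was 0 to 1 on leaving out 1 library. Under TAA, 0 members were called with RLE factors, 0 with the replicate block, whose numbers did not pair the libraries (same-numbered correlations 0.104, -0.0329 and 0.0087), and 0 to 6 on leaving out 1 library. All other counts stayed within 1.5 times, including DESeq2, limma on FPKM and no filter under TAA with 6 each, and the block changed no other call. The median of all genes under TAA was -0.04, against -0.37 by DESeq2, -0.34 with no filter and 0.33 by limma on FPKM.

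Signs changed as follows, in log2 fold changes. Quantile normalization gave 0.089 for Fads1 and 0.14 for Fads2 for CCl4 against oil, -0.056 for Scd1 and -0.19 for Fads1 for the Sting knockout label under CCl4, and 0.13 for Acly and 0.037 for Fasn for that label against oil. With edgeR on recovered reads, Fads2 was 0.028 for the label under CCl4 and Elovl6 0.15 against oil. Under TAA, Acacb was 0.0065 by limma on FPKM. On leaving out 1 library, the label under CCl4 gave -0.027 to 0.77 for Scd1, -0.031 to 0.23 for Fads1, -0.39 to 0.22 for Fads2 and -0.68 to 0.34 for Me1. The label against oil gave -0.088 to 0.32 for Acaca, -0.32 to 0.34 for Acly, -0.61 to 0.39 for Fasn and -0.61 to 0.43 for Elovl6. MCC950 gave -0.027 to 0.052 for Me1, and the deletion label under TAA -0.050 to 0.38 for Fasn and -0.046 to 0.26 for Acaca. The cause of these changes was not tested.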
